A study of Mus musculus with 14 samples.

Results

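The genes described here encode the enzymes that write and erase methyl groups on histones, the deacetylases that remove acetyl groups from them, and the CHD family of ATP-dependent chromatin remodellers. They were chosen by symbol, as every row of both deposited tables named Kdm1 to Kdm8, Kmt2, Setd, Ezh, Hdac, Sirt1 to Sirt7 or Chd1 to Chd9, with the Y-linked Kdm5d left out. The choice gave 59 genes of the 24444 in each table. Polyadenylated RNA from the whole cortex of 14 mice was sequenced in 2 models of the microRNA family miR-29, and bulk libraries of this kind cannot tell fewer cells of a type from less RNA per cell.

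In the first model, miR29Nestin mice (n = 3) carried floxed alleles of both genomic clusters of the family, miR-29ab1 and miR-29b2c, deleted by Nestin-Cre, and were compared with miR29WT mice (n = 3), all at postnatal day 40. Nestin-Cre recombines in progenitors of the nervous system, and so in cortical neurons, astrocytes and oligodendrocytes, while vessels, microglia and meninges lie outside its main reach. The labels do not say whether miR29WT mice carried floxed alleles or Cre. In the second model, Dnmt3a-mi5 mice (n = 4) had an intact miR-29 family and a knock-in allele of Dnmt3a in which 5 miR-29 sites of the 3′ UTR were mutated, and were compared with Dnmt3a-WT mice (n = 4), all at 4.5 months. Dnmt3a is the DNA methyltransferase that deposits non-CG methylation in neurons. The first comparison asks how these genes differ in cortex without miR-29, and the second how they differ where the release from miR-29 was engineered in Dnmt3a alone. No label says whether several libraries came from litter mates.

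Histone methylation marks the state of a gene. Methylation of H3K4, written by enzymes of the KMT2 and SETD1 families and erased by the KDM1 and KDM5 families, lies at promoters and enhancers. H3K27 methylation, written by EZH1 or EZH2 within Polycomb repressive complex PRC2 and erased by KDM6A and KDM6B, accompanies repression. Class I deacetylases work within corepressor complexes, among them NuRD, which also holds CHD3, CHD4 or CHD5, while class IIa deacetylases shuttle between nucleus and cytoplasm in neurons and bind MEF2 transcription factors. Mutations in several of these genes, KMT2A, KDM5C, CHD8 and HDAC4 among them, cause neurodevelopmental disorders in humans.

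The microRNAs deleted in the first model share 1 seed, and its matches in the genes below are shown because the family is deleted in the first model and intact in the second. The mature sequences, from RefSeq (GRCm38.p6), are shown with the seed, bases 2 to 8, in capitals.
mmu-miR-29a-3p: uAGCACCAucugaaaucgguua
mmu-miR-29b-3p: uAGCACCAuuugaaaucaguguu
mmu-miR-29c-3p: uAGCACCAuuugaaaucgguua

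The motif searched was TGGTGCT, the reverse complement of that seed, on the transcribed strand of the longest 3′ UTR of each gene in GENCODE M21 (GRCm38). At least 1 match was present in 16 of the 59 genes (27.1%), against 17.9% of the 11565 tested genes with an annotated 3′ UTR. The median 3′ UTR was 1428 bases long in the 59 genes and 1513 bases in the tested genes. Hdac4 and Kdm2a each held 2 matches and the other 14 genes held 1. The longer match, with an A after the seed match, was present in Hdac1 and Sirt5 alone among the 59. The 5 windows below belong to the 4 genes with a site that were called in cortex without miR-29, followed by the window of Kdm6b, the gene called in Dnmt3a-mi5 cortex. Each lies in a 3′ UTR, is read 5′ to 3′ on the strand of the gene and has the seed match in capitals.
Kdm5b, chr1:134631948-134631977, plus strand: aaacagtgtgtTGGTGCTttagcatttggc
Hdac4 first site, chr1:91933245-91933274, minus strand: gcgtcctgcctTGGTGCTctcttgagtaca
Hdac4 second site, chr1:91932934-91932963, minus strand: ttgattaaaacTGGTGCTtaacatttgatt
Hdac1, chr4:129516464-129516493, minus strand: gcacagggcagTGGTGCTaggagggctctt
Kmt2a, chr9:44804056-44804085, minus strand: gacagtgacggTGGTGCTgactccacatac
Kdm6b, chr11:69399026-69399055, minus strand: ccgggctctcaTGGTGCTcaaacctgctcc

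Reads in genes numbered 11.8 to 13.1 M per miR29Nestin library and 9.19 to 14.4 M per miR29WT library, as recovered from the deposited values, while the read depth of the Dnmt3a libraries is unknown. Dnmt3a served as the check of the labels. Its normalised count was 5275, 5452 and 5859 in the miR29Nestin libraries, against 1724, 1658 and 1605 in the miR29WT libraries. In the second model its deposited log2 level was 11.36, 11.19, 11.31 and 11.18 in Dnmt3a-mi5 libraries, against 10.62, 10.48, 10.51 and 10.65 in Dnmt3a-WT libraries. Dnmt3a was thus higher in every mutant library of both models. By the Y-linked genes Kdm5d, Uty, Ddx3y and Eif2s3y, 1 of 3 miR29Nestin mice and 2 of 3 miR29WT mice were male.

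In cortex without miR-29 the histone enzymes changed in both directions, with 5 genes higher and 7 lower. The higher genes were the demethylases Kdm5b and Kdm4b, the class IIa deacetylases Hdac7 and Hdac4, and the PRC2 methyltransferase Ezh1. The lower genes were the remodellers Chd3 and Chd4, the class IIa deacetylase Hdac9, the class I deacetylase Hdac1, the methyltransferases Kmt2a and Setd3, and the demethylase Kdm3b. Of the 59 genes, 57 passed the filter on low values, and these 12 were called by limma at an adjusted p under 0.05, which is 21.1% of those tested. Among all 12014 genes tested 19.1% were called, 1084 as higher and 1205 as lower, so the share of histone enzymes called lay near the background. The median log2 difference of the 57 genes was -0.02, and that of all tested genes was -0.01. An unadjusted p under 0.05 was reached by 19 of the 57, against 3962 of all 12014 genes tested.

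**Figure D1:**
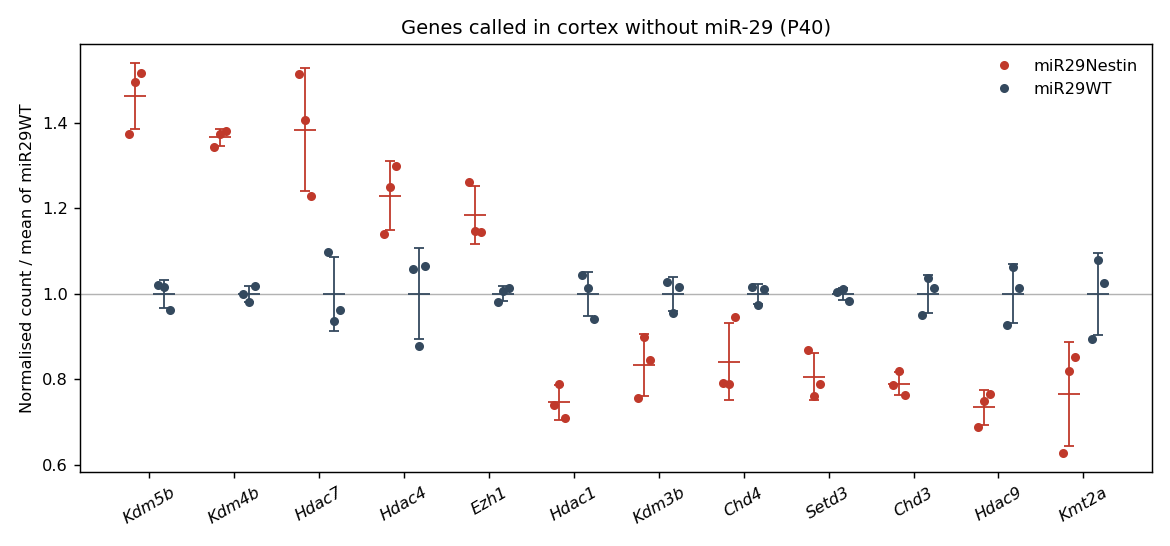
Normalised count of each called gene in each library, divided by the mean of the miR29WT libraries (vertical axis, ratio, not starting at 0), for the 3 miR29Nestin libraries (red) and the 3 miR29WT libraries (dark blue) at postnatal day 40, with bars for the mean and SD. No miR29Nestin point overlaps the miR29WT points of the same gene, with Kdm5b at 1.46 times the miR29WT mean at one end and Hdac9 at 0.734 times at the other.

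The libraries of the 2 groups did not overlap for 15 of the 57 genes (26.3%), of which 8 were higher and 7 lower in miR29Nestin cortex. Among all tested genes 37.3% did not overlap. With 3 libraries a group an exact permutation test cannot give a p below 0.1, which each non-overlapping gene reached. A fit that blocked on replicate number called 16 of the 57 genes, all 12 among them, against a background of 25.3%. Calls of 6 genes, Kdm5b, Kdm4b, Hdac7, Chd3, Hdac9 and Setd3, held in each of the 6 fits that left out 1 library, and the count of calls fell to 7 without miR29WT library 2 or library 3 and to 8 without miR29Nestin library 2. With no filter on low values, where all 24444 genes were tested, Kdm5b, Kdm4b and Chd3 alone of the 12 were called. The adjusted p was then 0.103 for Hdac7, 0.051 for Hdac9 and 0.0597 for Setd3 in limma.

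Markers of cell types also differed between these cortices. Of 8 excitatory neuron markers 4 fell and none rose, and their summed normalised count was 63107 to 67221 in miR29Nestin libraries and 71739 to 82778 in miR29WT libraries. Of 6 astrocyte markers 3 rose and 1 fell, with sums of 14110 to 14548 in miR29Nestin libraries and 12864 to 13543 in miR29WT libraries. Of the leptomeningeal fibroblast markers 2 of 4 tested rose, with sums of 1220 to 1578 in miR29Nestin libraries and 551 to 946 in miR29WT libraries. Oligodendrocyte markers rose in 2 of 6 cases and summed to 103728 to 115825 in miR29Nestin libraries and 95224 to 105921 in miR29WT libraries, and 1 of 4 markers of their precursors rose, with sums of 3218 to 3392 in miR29Nestin libraries and 2755 to 3101 in miR29WT libraries. Inhibitory neuron markers had 2 rises and 2 falls among 7, with sums of 10925 to 12014 in miR29Nestin libraries and 11086 to 11908 in miR29WT libraries. Markers of immature neurons fell in 2 of 4 cases, with sums of 4623 to 5289 in miR29Nestin libraries and 5137 to 5477 in miR29WT libraries. None of the 6 microglial, 5 endothelial and 5 striatal markers was called. No marker of the 10 lists stood at 0 in every library. The part of these shifts in the differences of the histone enzymes was not tested.

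Long transcripts differed from short ones as well. The longest transcript of the histone enzymes had a median length of 5.93 kb, against 3.61 kb over all tested genes. Across all tested genes the log2 difference between miR29Nestin and miR29WT ran with transcript length at a Spearman rho of -0.22, a description over genes of the same libraries. The deviation of single libraries from their group mean ran with length at -0.39, 0.09 and 0.37 in miR29Nestin libraries 1, 2 and 3, against -0.18, -0.02 and 0.22 in miR29WT libraries 1, 2 and 3. With the trends on GC content and transcript length removed from each library, an alternative chosen after seeing the data, all 12 genes remained called. Setd7, Kdm5c and Kdm6b were called in addition, for 15 of 57 against a background of 21.1%.

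**Figure D2:**
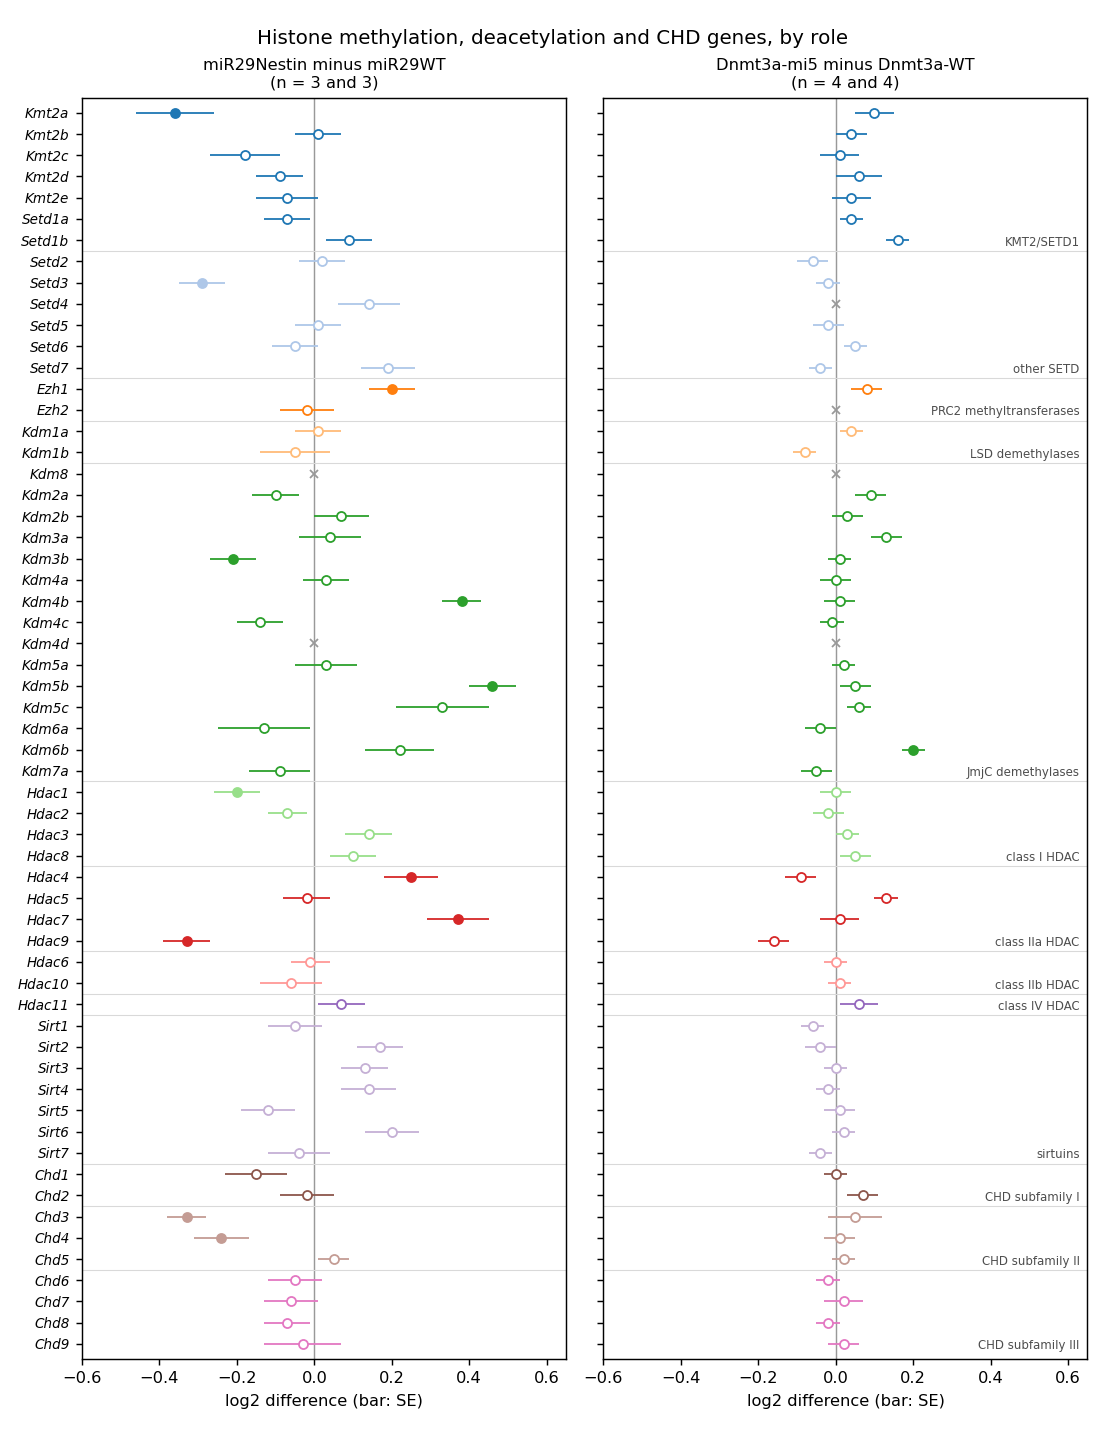
Log2 difference of each histone enzyme gene, mutant minus wild type, with its standard error (horizontal axis), for miR29Nestin against miR29WT (left, 3 and 3 mice) and Dnmt3a-mi5 against Dnmt3a-WT (right, 4 and 4 mice), with genes grouped by role down the page. Filled points were called at an adjusted p under 0.05 in limma, 12 on the left and 1 on the right, and crosses at 0 stand for genes below the filter on low values.

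Among the 7 KMT2 and SETD1 genes Kmt2a alone was called. Its normalised count was 1397, 1824 and 1898 in miR29Nestin libraries and 1990, 2406 and 2286 in miR29WT libraries. The groups did not overlap, and miR29Nestin library 1 stood lowest. Kmt2a fell by 0.36 on the log2 scale (SE 0.10, adjusted p = 0.0294 in limma), and its 3′ UTR holds the miR-29 match shown above. It was called in 3 of the 6 fits that left out 1 library, and its adjusted p was 0.0514 with a robust variance prior. Without miR29Nestin library 1 the difference was -0.23 (adjusted p = 0.0511), and the call was also lost without miR29WT library 2 or library 3 (adjusted p = 0.123 and 0.0915). Library 1 was the male of the miR29Nestin group, and with sex as a covariate the Kmt2a difference was -0.45 (adjusted p = 0.00155 in limma). The other 6 lay between -0.18 for Kmt2c and 0.09 for Setd1b on the log2 scale, and the median of the group was -0.07. Kmt2e, the highest of them per kb, had 1395, 1685 and 1792 normalised counts in miR29Nestin libraries and 1711, 1703 and 1716 in miR29WT libraries, which overlap. Of 14 partners of KMT2 and SETD1 enzymes in COMPASS complexes, 3 rose and 2 fell (35.7% called, against 19.1% of all genes tested). Wdr5, the core subunit that binds the catalytic enzymes, had 572 ± 9.44 normalised counts in miR29Nestin cortex and 451 ± 3.02 in miR29WT cortex (SD, n = 3 each; adjusted p = 0.00705 in limma). Pagr1a, a subunit of complexes with KMT2C or KMT2D, rose by 0.20 on the log2 scale, Cxxc1, a CpG-binding subunit of SETD1 complexes, rose by 0.17, and Ncoa6 fell by 0.28.

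Among the other SETD genes, Setd3 fell and 5 tested genes were not called. SETD3 is known as the enzyme that methylates a histidine of actin, so its place here comes from its name. Its normalised count was 1834, 1609 and 1665 in miR29Nestin libraries, against 2123, 2135 and 2080 in miR29WT libraries. Every miR29Nestin library lay below every miR29WT library, with a log2 difference of -0.29 (SE 0.06, adjusted p = 0.00517 in limma). Setd7, a lysine methyltransferase of H3K4 and of other proteins, had 3421, 4011 and 4184 normalised counts in miR29Nestin libraries and 3407, 3198 and 3444 in miR29WT libraries. These groups overlap through miR29Nestin library 1. Setd7 was not called (log2 difference 0.19, adjusted p = 0.0733 in limma), and it was called with the replicate number as a block (adjusted p = 0.0312) and, at 0.28, without miR29Nestin library 1 (adjusted p = 0.00537). Library 1 was the male of the miR29Nestin group, and with sex as a covariate Setd7 was not called. Setd2, the writer of H3K36 trimethylation, and Setd5 differed by 0.02 and 0.01.

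Of the 20 other lysine methyltransferases tested, 3 rose and 3 fell. Dot1l, which methylates H3K79, averaged 1308 ± 61.3 normalised counts in miR29Nestin cortex and 892 ± 82.7 in miR29WT cortex (SD, n = 3 each; log2 difference 0.48, adjusted p = 7.18e-04 in limma). Kmt5c, a writer of H4K20 trimethylation, rose by 0.39 on the log2 scale. Ash1l, an H3K36 methyltransferase, fell by 0.37 and Smyd5 fell by 0.35.

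Ezh1 rose and Ezh2 was not called. EZH1 is the PRC2 methyltransferase of non-dividing cells, whereas EZH2 is the main one in dividing progenitors. Ezh1 had 1063, 965 and 964 normalised counts in miR29Nestin libraries and 825, 848 and 854 in miR29WT libraries. The groups did not overlap, and the log2 difference was 0.20 (SE 0.06, adjusted p = 0.027 in limma). The call held in 1 of the 6 fits that left out 1 library, with a highest adjusted p of 0.0768. Ezh2 had 61.5, 47.1 and 63.4 normalised counts in miR29Nestin libraries and 52.7, 62.2 and 64.8 in miR29WT libraries, which overlap. Per kb of transcript, Ezh1 stood at 237 ± 13.5 normalised counts in miR29Nestin cortex and 200 ± 3.62 in miR29WT cortex, and Ezh2 at 20.6 ± 3.2 in miR29Nestin and 21.5 ± 2.3 in miR29WT cortex (SD, n = 3 each). None of 7 tested PRC2 partners was called, and 1 had an unadjusted p under 0.05. Jarid2, counted here with the other JmjC proteins and known as an accessory subunit of PRC2, averaged 689 ± 63.9 normalised counts in miR29Nestin cortex and 493 ± 6.34 in miR29WT cortex (SD, n = 3 each; adjusted p = 0.00288 in limma).

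Neither LSD demethylase was called. Kdm1a, which removes mono- and dimethylation of H3K4, had 913, 879 and 909 normalised counts in miR29Nestin libraries and 977, 823 and 886 in miR29WT libraries. Kdm1b, its paralogue, differed by -0.05 on the log2 scale with an SE of 0.09.

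Of the 13 JmjC demethylases tested, Kdm5b and Kdm4b rose and Kdm3b fell. Kdm5b, which removes H3K4 methylation, had 1137, 1237 and 1255 normalised counts in miR29Nestin libraries and 844, 841 and 796 in miR29WT libraries. All miR29Nestin libraries lay well above the highest miR29WT library, 1.46-fold on average (log2 difference 0.46, SE 0.06, adjusted p = 3.06e-04 in limma). Its 3′ UTR holds 1 seed match, shown above. Kdm4b, an H3K9 demethylase with no match, had 1151, 1176 and 1182 normalised counts in miR29Nestin libraries and 856, 840 and 872 in miR29WT libraries. The spread within each group was small beside the 1.37-fold difference (log2 difference 0.38, SE 0.05, adjusted p = 4.99e-04 in limma).

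Kdm3b, another H3K9 demethylase, had 577, 686 and 644 normalised counts in miR29Nestin libraries and 785, 729 and 775 in miR29WT libraries. The groups did not overlap (log2 difference -0.21, SE 0.06, adjusted p = 0.0396 in limma), and the call held in 1 of the 6 fits that left out 1 library. Kdm6b, an H3K27 demethylase that responds to signals in many cell types, had 482, 502 and 475 normalised counts in miR29Nestin libraries and 334, 478 and 380 in miR29WT libraries. Its groups overlap only through miR29WT library 2, and its log2 difference of 0.22 was not called (adjusted p = 0.0941 in limma, 0.0372 with the replicate number as a block). The difference was 0.14 without miR29WT library 1 (adjusted p = 0.277) and 0.32 without miR29WT library 2 (adjusted p = 0.019). Library 2 was the female of the miR29WT group, so only males were then left in it, against both sexes in miR29Nestin. With sex as a covariate the Kdm6b difference was 0.17 (adjusted p = 0.153 in limma). Kdm8 lay below the filter on low values, at 67.0, 60.1 and 63.4 normalised counts in miR29Nestin libraries and 49.4, 28.5 and 27.4 in miR29WT libraries, which do not overlap. Kdm4d, the other untested gene, stood at 17.0 to 20.5 in miR29Nestin libraries and 14.1 to 25.9 in miR29WT libraries. Of 10 other JmjC proteins 2 rose and 3 fell (50.0% called, against 19.1% of all genes tested). Besides Jarid2, Phf8, a demethylase of H3K9 and H4K20, rose by 0.25 on the log2 scale, while Riox2 fell by 0.30 and Jmjd4 by 0.25.

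Kdm5c and Kdm6a are X-linked, escape X inactivation and have Y-linked partners, so their level depends on the sex of the mouse. Kdm5c, an H3K4 demethylase with 1 miR-29 match, had 1032, 1548 and 1495 normalised counts in miR29Nestin libraries and 918, 1155 and 1024 in miR29WT libraries. The male of the miR29Nestin group, library 1, stood lowest in it and the female of the miR29WT group, library 2, stood highest in it. Kdm5c was not called (log2 difference 0.33, SE 0.12, adjusted p = 0.0807 in limma). Its log2 mean was 10.74 in 2 miR29Nestin females and 10.39 in the miR29WT female, and 10.25 in the miR29Nestin male and 10.17 in 2 miR29WT males. With sex as a covariate the difference was 0.21 (SE 0.07, adjusted p = 0.0614), and with the replicate number as a block it was 0.33 (adjusted p = 0.00369). Without miR29Nestin library 1, the male, it was 0.49 (adjusted p = 0.00208). Only females were then left in miR29Nestin, against both sexes in miR29WT. Under number 3 the block joins a miR29Nestin female with a miR29WT male, so neither of these 2 fits is balanced by sex.

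Kdm6a, the X-linked H3K27 demethylase, had 178, 267 and 325 normalised counts in miR29Nestin libraries and 274, 343 and 258 in miR29WT libraries. The groups overlap widely and it was not called (log2 difference -0.13, adjusted p = 0.488 in limma). Within each sex the miR29Nestin mean was lower, at 8.87 against 9.02 in miR29WT females and at 8.42 against 8.77 in miR29WT males on the log2 scale. With sex as a covariate the difference was -0.25 (SE 0.08, adjusted p = 0.0456). That fit called 15 of the 57 genes against a background of 20.8%. It added Sirt2 and Hdac3 as higher and Kdm6a and Chd1 as lower, and lost Hdac1 (adjusted p = 0.053).

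**Figure D3:**
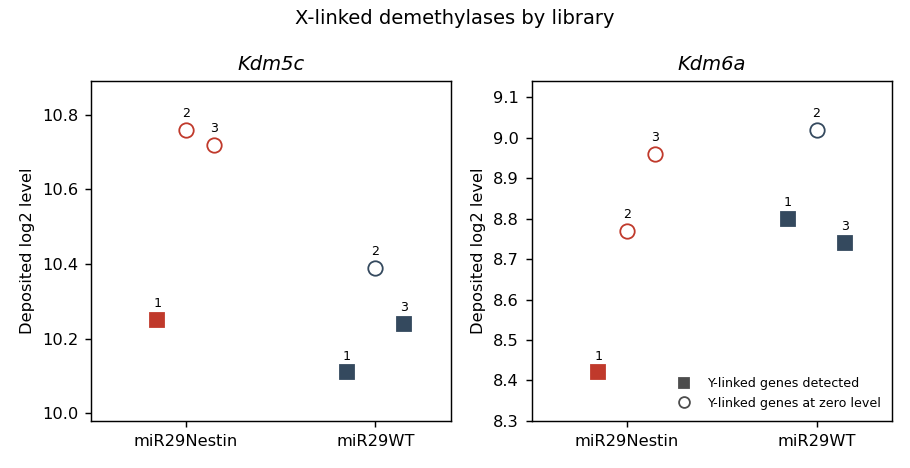
Deposited log2 level of Kdm5c (left) and Kdm6a (right) in each numbered library of miR29Nestin and miR29WT cortex, with squares for libraries in which Y-linked genes were detected (males) and circles for those in which they stood at the zero level (females). Within each group and for both genes every male lies below every female, and the Kdm5c level of both miR29Nestin females, 10.74 on average, lies above the miR29WT female at 10.39.

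Of the 4 class I deacetylases Hdac1 alone was called. It had 102, 109 and 97.8 normalised counts in miR29Nestin libraries and 144, 140 and 130 in miR29WT libraries. The groups did not overlap, at 0.747 times the miR29WT mean. On the deposited scale, which compresses differences of low genes, Hdac1 fell by 0.20 (SE 0.06, adjusted p = 0.0414 in limma), and the call held in none of the 6 fits that left out 1 library. Its 3′ UTR holds the longer miR-29 match, as the window above shows. Hdac2, its closest paralogue, had 1131, 1073 and 1026 normalised counts in miR29Nestin libraries and 1117, 1148 and 1142 in miR29WT libraries, which overlap. Per kb of transcript, Hdac3 stood at 354 ± 21.5 normalised counts in miR29Nestin cortex and 316 ± 20.5 in miR29WT cortex, and Hdac2 at 331 ± 16.3 in miR29Nestin and 349 ± 5.08 in miR29WT cortex (SD, n = 3 each). Hdac1 was far lower than both, at 50.6 ± 2.81 per kb in miR29Nestin cortex and 67.7 ± 3.59 in miR29WT cortex.

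The class IIa deacetylases moved in both directions, with Hdac7 and Hdac4 higher, Hdac9 lower and Hdac5 not called. Hdac7 had 811, 753 and 658 normalised counts in miR29Nestin libraries and 588, 501 and 515 in miR29WT libraries. These groups were apart by 1.39-fold on average (log2 difference 0.37, SE 0.08, adjusted p = 0.00663 in limma). Hdac4 had 991, 1086 and 1129 normalised counts in miR29Nestin libraries and 920, 762 and 925 in miR29WT libraries. Its groups were close at their edges, 991 in the lowest miR29Nestin library against 925 in the highest miR29WT library, and its log2 difference was 0.25 (SE 0.07, adjusted p = 0.0339 in limma). The call held in 3 of the 6 fits that left out 1 library. Hdac4 is the only gene of its class with 2 miR-29 matches.

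Hdac9 had 382, 416 and 425 normalised counts in miR29Nestin libraries and 514, 590 and 562 in miR29WT libraries. Every miR29Nestin library was lower, at 0.734 times the miR29WT mean (log2 difference -0.33, SE 0.06, adjusted p = 0.00454 in limma). With the trends on GC content and gene length removed from each library the difference was -0.21 (adjusted p = 0.0286). Excitatory neuron markers, as given above, were lower in the same libraries, and their part in the Hdac9 difference was not tested. Hdac5, which holds 1 match and has the highest level per kb of its class, had 2050, 2246 and 1934 normalised counts in miR29Nestin libraries and 2067, 2232 and 1998 in miR29WT libraries. These groups overlap, and the log2 difference was -0.02 with an SE of 0.06. Per kb of transcript Hdac5 stood at 384 ± 29.2 in miR29Nestin cortex and 388 ± 22.2 in miR29WT cortex, whereas Hdac9 stood at 51.3 ± 2.82 in miR29Nestin and 69.9 ± 4.8 in miR29WT cortex (SD, n = 3 each).

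The class IIb genes and the class IV gene were not called. Hdac6, a cytoplasmic tubulin deacetylase, had 780, 794 and 791 normalised counts in miR29Nestin libraries and 785, 808 and 794 in miR29WT libraries. Hdac10, a polyamine deacetylase, differed by -0.06 on the log2 scale. Hdac11, the class IV enzyme, had 2875, 2553 and 2594 normalised counts in miR29Nestin libraries and 2411, 2679 and 2516 in miR29WT libraries, which overlap. Its level per kb was the highest of the zinc-dependent deacetylases, at 1008 ± 66.1 in miR29Nestin cortex and 956 ± 50.8 in miR29WT cortex (SD, n = 3 each).

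Partners of the deacetylases in corepressor complexes gave 1 rise and 4 falls among 23 tested (21.7% called, against 19.1% of all genes tested). Ncor1, a scaffold that holds HDAC3, averaged 2198 ± 230 normalised counts in miR29Nestin cortex and 2801 ± 88.7 in miR29WT cortex (SD, n = 3 each; log2 difference -0.33, adjusted p = 0.00737 in limma). Rcor2, a partner of LSD1 and HDAC1, fell by 0.34 on the log2 scale and Tbl1x by 0.25. Of 10 histone acetyltransferases, the enzymes that act against deacetylases, Kat6b fell by 0.27 and none rose. Of 9 arginine methyltransferases 3 fell and none rose (33.3% called). Prmt8, a membrane-anchored and brain-enriched enzyme, averaged 1024 ± 50.3 normalised counts in miR29Nestin cortex and 1423 ± 51.0 in miR29WT cortex (SD, n = 3 each; adjusted p = 5.53e-04 in limma). Prmt2 fell by 0.29 on the log2 scale and Carm1 by 0.20.

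No sirtuin, of 7 tested, was called, and the median of the class was 0.13 on the log2 scale. An unadjusted p under 0.05 was reached by 3 of them, against 3962 of all 12014 genes tested. Sirt2, an NAD-dependent deacetylase that is abundant in myelin, had 3133, 2821 and 2740 normalised counts in miR29Nestin libraries and 2755, 2490 and 2420 in miR29WT libraries. Same-numbered libraries differed by similar amounts, and the log2 difference of 0.17 had an adjusted p of 0.0877 in limma and 0.0148 with the replicate number as a block. Without miR29WT library 1 the difference was 0.22 (adjusted p = 0.0462). Oligodendrocyte markers, given above, were called higher in 2 of 6 cases in the same libraries, and their part in the Sirt2 difference was not tested. Sirt6, a deacetylase of H3K9 and H3K56, had 274, 242 and 244 normalised counts in miR29Nestin libraries and 192, 230 and 186 in miR29WT libraries. Its groups do not overlap, as was also the case for the mitochondrial sirtuins Sirt3 and Sirt4, and its adjusted p was 0.0724. Per kb of transcript Sirt2 was the highest of the class, at 1369 ± 98.2 normalised counts in miR29Nestin cortex and 1207 ± 83.4 in miR29WT cortex (SD, n = 3 each), a miR29WT level within the spread of that of Chd3.

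Among the CHD remodellers the calls lay in subfamily II, the NuRD remodellers, where Chd3 and Chd4 fell and Chd5 was not called. Chd3 had 6863, 7157 and 6674 normalised counts in miR29Nestin libraries and 8293, 9058 and 8845 in miR29WT libraries. All miR29Nestin libraries were lower, at 0.790 times the miR29WT mean (log2 difference -0.33, SE 0.05, adjusted p = 0.00101 in limma). Chd4 had 2028, 2021 and 2426 normalised counts in miR29Nestin libraries and 2606, 2497 and 2592 in miR29WT libraries. The groups did not overlap, miR29Nestin library 3 lying closest, and the log2 difference was -0.24 (SE 0.07, adjusted p = 0.0322 in limma). The call held in 1 of the 6 fits that left out 1 library.

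Chd5, a neuron-enriched remodeller with 1 miR-29 match, had 4397, 4506 and 4353 normalised counts in miR29Nestin libraries and 4136, 4318 and 4380 in miR29WT libraries, which overlap. Per kb of transcript Chd3 stood at 950 ± 33.6 in miR29Nestin cortex and 1203 ± 54.4 in miR29WT cortex, and Chd5 at 466 ± 8.29 in miR29Nestin and 451 ± 13.4 in miR29WT cortex (SD, n = 3 each). Of 8 NuRD partners 2 fell and none rose (25.0% called, against 19.1% of all genes tested). The median log2 difference of these partners was -0.01. Mta3, a scaffold subunit, averaged 406 ± 1.50 normalised counts in miR29Nestin cortex and 569 ± 48.9 in miR29WT cortex (SD, n = 3 each; adjusted p = 0.00288 in limma), and Gatad2b fell by 0.31 on the log2 scale. No gene of CHD subfamilies I and III was called. Chd8, a gene of subfamily III, had 1302, 1350 and 1323 normalised counts in miR29Nestin libraries and 1262, 1492 and 1445 in miR29WT libraries, which overlap. Chd2, the highest gene of subfamily I per kb, had 794, 921 and 968 normalised counts in miR29Nestin libraries and 841, 962 and 919 in miR29WT libraries. These groups overlap too, with a log2 difference of -0.02.

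**Figure D4:**
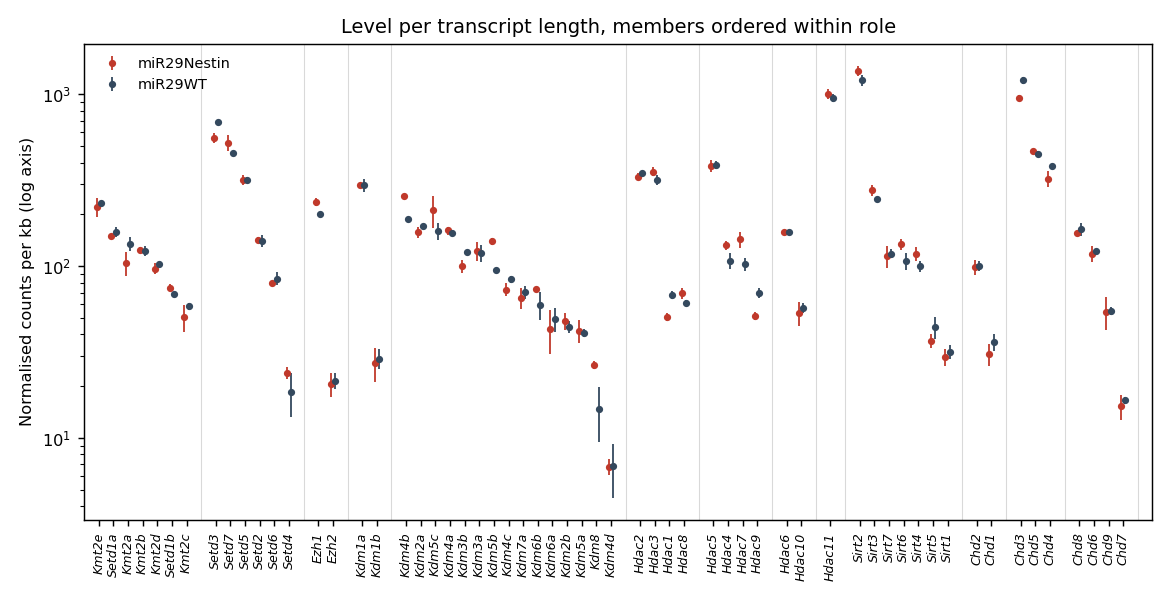
Normalised counts per kb of the longest annotated transcript (vertical log axis) for all 59 genes, grouped by role and ordered within a role by the miR29WT level, with the mean and SD of 3 miR29Nestin libraries (red) and 3 miR29WT libraries (dark blue). Sirt2, Hdac11 and Chd3 stand near 1000 in both groups, while Kdm4d stands lowest at 6.77 in miR29Nestin and 6.86 in miR29WT.

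Genes with a miR-29 match did not move in 1 direction. Of the 16, all tested, 2 rose (Kdm5b and Hdac4), 2 fell (Hdac1 and Kmt2a) and the median log2 difference was -0.00. Of the 41 tested genes without a match 3 rose and 5 fell, with a median of -0.02. Over all tested genes with at least 1 match, 336 rose and 173 fell of 2071, and over those with none 708 rose and 1000 fell of 9494. These are counts without a test.

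In Dnmt3a-mi5 cortex Kdm6b rose and no other histone enzyme was called. Its call was lost when the removed effect, described below, was a term in the fit. Of the 59 genes 55 were tested, so 1.82% were called, against 0.797% of all 10670 genes tested (24 as higher and 61 as lower). Kdm6b stood at 9.88, 9.74, 9.79 and 9.84 on the deposited log2 scale in Dnmt3a-mi5 libraries, against 9.61, 9.62, 9.65 and 9.58 in Dnmt3a-WT libraries. Every Dnmt3a-mi5 library was higher, by 0.20 on average (SE 0.03, adjusted p = 0.0387 in limma). The smallest p of an exact permutation test of 4 libraries against 4 is 0.0286, 2-sided, which Kdm6b reached.

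The values of this table carry an additive effect with 2 levels that had been removed between 2 sets of 4 libraries, each with 2 libraries of either group. With that effect as a term in the fit, no histone enzyme was called, the background was 0.122% and Kdm6b, again at 0.20, had an adjusted p of 0.114. Without the term the fit ignores the removed effect and understates the SE, which for Kdm6b was 0.03, against 0.04 with the term. Restricted to assignments with 2 libraries of each set in a group, the exact permutation p was 0.0556, the smallest that these 36 assignments allow. Without the effect as a term, the call of Kdm6b was lost in 7 of the 8 fits that left out 1 library and held without Dnmt3a-WT library 2, while its log2 difference lay between 0.18 and 0.22. It was also lost with the trends on GC content and transcript length removed, at a difference of 0.17 (adjusted p = 0.0667).

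Next to Kdm6b in order of p came Setd1b, Hdac5 and Hdac9, none of them called. Setd1b, an H3K4 methyltransferase, stood at 10.40, 10.40, 10.38 and 10.35 in Dnmt3a-mi5 libraries, against 10.17, 10.25, 10.20 and 10.29 in Dnmt3a-WT libraries. Its groups do not overlap, with a log2 difference of 0.16 (SE 0.03, adjusted p = 0.0554 in limma). Hdac5 stood at 11.29, 11.32, 11.32 and 11.34 in Dnmt3a-mi5 libraries, against 11.18, 11.22, 11.18 and 11.16 in Dnmt3a-WT libraries. Its groups do not overlap either, with a log2 difference of 0.13 (SE 0.03, adjusted p = 0.0554). Hdac9 stood at 9.51, 9.59, 9.64 and 9.60 in Dnmt3a-mi5 libraries, against 9.73, 9.84, 9.73 and 9.70 in Dnmt3a-WT libraries. All its Dnmt3a-mi5 libraries were lower, with a log2 difference of -0.16 (SE 0.04, adjusted p = 0.0734). With the trends on GC content and gene length removed it was -0.10 (adjusted p = 0.254).

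Excitatory neuron markers were lower in Dnmt3a-mi5 means for 8 of 8 genes, with none called, and summed to 57647 to 63383 normalised counts in Dnmt3a-mi5 libraries and 63788 to 68132 in Dnmt3a-WT libraries. Of the microglial markers 2 of 5 fell and of the endothelial markers 1 of 5 rose, and no marker of the other lists was called. Striatal neuron markers were higher in Dnmt3a-mi5 means for 5 of 5 genes, by 0.32 to 0.47 on the log2 scale, 3 of them at an unadjusted p under 0.05. Their sums were 3519 to 7603 in Dnmt3a-mi5 libraries and 3044 to 5192 in Dnmt3a-WT libraries. Oligodendrocyte markers were higher for 6 of 6 genes, with sums of 40687 to 54366 in Dnmt3a-mi5 libraries and 31549 to 50690 in Dnmt3a-WT libraries. Inhibitory neuron markers were higher for 6 of 7 genes, with sums of 9815 to 11378 in Dnmt3a-mi5 libraries and 9501 to 9850 in Dnmt3a-WT libraries. The part of these in the values above was not tested. Groups did not overlap for 6 of the 55 genes (10.9%), 4 higher and 2 lower, against 12.0% of all tested genes. An unadjusted p under 0.05 was reached by 7 of the 55, against 2025 of all 10670 genes tested. The 2 others without overlap were Kdm3a, an H3K9 demethylase with a log2 difference of 0.13 (adjusted p = 0.127), and Kdm1b with -0.08 (adjusted p = 0.205). All 7 KMT2 and SETD1 genes had positive differences, from 0.01 for Kmt2c to 0.16 for Setd1b, with none called. Differences were positive for 37 of the 55 histone enzymes tested and for 5469 of all 10670 genes tested. Of the partner lists only Tbl1xr1, a corepressor subunit, was called, at 880 ± 42.0 normalised counts in Dnmt3a-mi5 cortex and 1079 ± 32.5 in Dnmt3a-WT cortex (SD, n = 4 each; adjusted p = 0.0283 in limma).

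**Figure D5:**
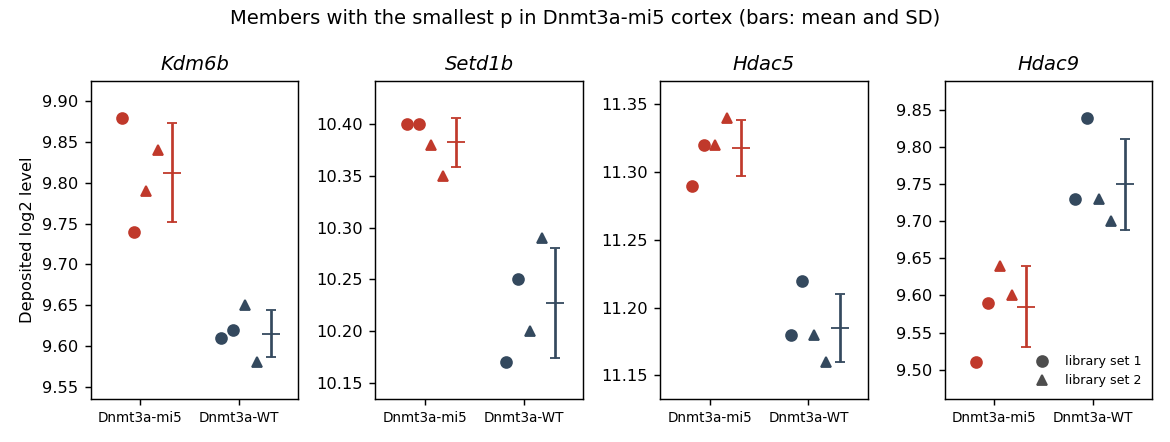
Deposited log2 level of the 4 genes with the smallest p in the second model, in each library of Dnmt3a-mi5 (red) and Dnmt3a-WT (dark blue) cortex at 4.5 months, with bars for the mean and SD and with circles and triangles for the 2 library sets that differ in the removed effect. The groups do not overlap for any of the 4, and Kdm6b, Setd1b and Hdac5 are higher and Hdac9 is lower in Dnmt3a-mi5 cortex.

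Set beside each other, the 12 genes called in miR29Nestin cortex had differences of -0.16 to 0.10 in Dnmt3a-mi5 cortex. The sign was the same as in miR29Nestin cortex for 6 and the opposite for 6. Chd4, Hdac1, Hdac7, Kdm3b and Kdm4b lay at 0.00 to 0.01 in Dnmt3a-mi5 cortex, each below its SE. The signs of these genes turned there with GC and gene length trends removed. Among all 55 genes tested in both models 31 had the same sign and 24 the opposite. The models share no libraries, and they differ in age and in library kit. Kdm5b differed by 0.46 in miR29Nestin cortex and by 0.05 (SE 0.04) in Dnmt3a-mi5 cortex, and Kdm4b by 0.38 in miR29Nestin and 0.01 (SE 0.04) in Dnmt3a-mi5 cortex. Kmt2a differed by -0.36 in miR29Nestin cortex and by 0.10 (SE 0.05) in Dnmt3a-mi5 cortex, and Hdac4 by 0.25 in miR29Nestin and -0.09 (SE 0.04) in Dnmt3a-mi5 cortex. Hdac9 had a difference of -0.33 in miR29Nestin cortex, where it was called, and -0.16 in Dnmt3a-mi5 cortex. With the trends on GC content and gene length removed it had -0.21 in miR29Nestin and -0.10 in Dnmt3a-mi5 cortex. Kdm6b had a difference of 0.22 in miR29Nestin cortex and 0.20 in Dnmt3a-mi5 cortex, where it was called, though not with the removed effect as a term. The difference between models was not tested for any gene, since the tables were normalised separately.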

How the data were processed

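Per the labels' protocols, stranded polyadenylated RNA libraries were made with a TruSeq kit for the miR29 mice and a KAPA kit for the Dnmt3a mice, and sequenced as paired ends. Tools listed in the submitters' processing notes are DESeq2, Salmon, STAR and cutadapt, with no version or role, and the listed builds are mm9 and hg19. The authors deposited 1 table per model of log2 values, which the file names give as variance-stabilised by DESeq2. Normalised counts were recovered by inverting that transformation, which for the miR29 table left 85.7 to 88.8% of low values within 0.05 reads of a whole number. Columns of the Dnmt3a table map to groups only, and its libraries are numbered by column order. In it, 2 sets of 4 libraries had the same mean within 5.5e-09 for every gene, so a 2-level effect had been removed. Values of 2546 genes lay below its zero level, so its counts are approximate.

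Each table was fitted with limma 3.58.1 in R 4.3.3 (empirical Bayes with a mean-variance trend), for genes with a mean at least 1 above the lowest value on the log2 scale, about 48.0 and 80.1 normalised counts. P-values were adjusted by Benjamini-Hochberg over all genes tested and called under 0.05. A gene's SE and log2 difference are on the deposited scale, which understates the change of low genes, and fold values are ratios of mean normalised counts. The fit was tested on simulated data with independent residuals, which lack the replicate correlation, length trend and removed effect of the deposited values. Members, lists and tests were chosen with earlier results of these data known. Same-numbered miR29 libraries deviated together (correlations of deviations 0.335, 0.204 and 0.186 for numbers 1, 2 and 3), so the replicate number was also fitted as a block. Unlike-numbered pairs ranged from -0.327 to 0.178, the highest being miR29Nestin library 3 with miR29WT library 2. The labels do not say what a shared number stands for. Values per library are given for genes called in either model, for Kdm5c and Kdm6a, for genes with a site whose groups do not overlap and for the highest gene per kb of each role. Other genes were added after their values were seen, and up to 4 called genes are named per partner list. One called gene of the corepressor list is not reported here. Transcript lengths and 3′ UTRs came from GENCODE M21 (GRCm38), to which 98.5% of symbols matched. Python 3.11.15 with numpy 2.4.6, pandas 2.3.3 and scipy 1.17.1 made the summaries. Alternatives were other filters, variance priors, scalings, trend removals, the block, sex, the removed effect and leaving out each library.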

Additional observations from a re-analysis of the deposited data

Results flagged for a closer look

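Among the Dnmt3a libraries 4 of 110 groups of 4 libraries had 1 library far from the other 3, where chance alone gives about 1 in 20. Chd7 stood at 9.18 in Dnmt3a-mi5 library 1, against 9.03 to 9.04 in the other Dnmt3a-mi5 libraries. Kdm5b stood at 10.26 in Dnmt3a-mi5 library 4, against 10.22 in the others. Chd4 stood at 11.62 in Dnmt3a-WT library 2, against 11.67 to 11.68 in the others, and Sirt4 at 8.57 in the same library, against 8.63 to 8.64.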

How the results depend on the processing

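In miR29Nestin cortex the counts of calls among the histone enzymes, all genes and the partner lists (12, 2289 and 27) fell to 3, 848 and 11 with no filter on low values, where all 24444 genes were tested, and ranged over 7 to 10, 1384 to 2313 and 12 to 25 when 1 library was left out. With the replicate block they were 16, 3037 and 32, and the block changed no call of a histone enzyme beyond those given beside Setd7, Kdm5c, Kdm6b and Sirt2. In Dnmt3a-mi5 cortex the counts (1, 85 and 1) fell to 0, 13 and 0 with the removed effect as a term, to 0, 20 and 0 with GC and gene length trends removed, and to 0, 25 and 0 with GC and transcript length trends removed, the last chosen after seeing the data. With no filter all genes gave 38 and the lists 0, and Hdac5 was called in place of Kdm6b (adjusted p = 0.0439 and 0.0836 in limma), and with 1 library left out the counts ranged over 0 to 3, 9 to 176 and 0 to 1. Histone enzymes called were 3 of 39 tested with a stricter filter (Hdac5 and Setd1b besides Kdm6b), against 125 of all 5487 genes tested. They were 2 of 55 with a robust prior, against 119 of all 10670 genes. With no mean-variance trend they were 2 of 55, against 110 of all 10670 genes. A replicate block for the Dnmt3a table, made after seeing the data from the header number within each library set, gave 0, 2 and 0 calls, also with GC and transcript length trends removed. Kdm6b was then 0.20 and 0.17 (adjusted p = 0.216 and 0.363). The sets were read from the values, and the 4 pairs correlated from -0.555 to -0.147. Removal of the effect makes deviations within a set cancel out, which lowers such correlations, so they cannot show whether these libraries are paired.

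Signs turned only for genes that were not called. Hdac5 in miR29Nestin cortex was 0.02 with quantile normalisation, 0.01 with GC and transcript length trends removed, also with the replicate block, and -0.07 to 0.03 with 1 library left out, and Kdm6a -0.25 to 0.02. In Dnmt3a-mi5 cortex Hdac1 was -0.0004 with quantile normalisation. With GC and gene length trends removed the values there were -0.01 for Chd4, Hdac1 and Kdm3b, -0.03 for Hdac7, -0.02 for Kdm4b and 0.0036 for Kdm6a. With GC and transcript length trends removed, with or without the replicate block, they were -0.0029 for Chd4, -0.0043 for Hdac1, -0.03 for Hdac7 and Kdm4b, -0.01 for Kdm3b and 0.0009 for Kdm6a. With 1 library left out Chd3 ranged over -0.01 to 0.13, Chd4 over -0.02 to 0.03, Hdac1 over -0.03 to 0.04, Hdac7 over -0.03 to 0.05 and Kdm4b over -0.01 to 0.04. The cause of these changes was not tested. The filter on low values left out Kdm8 and Kdm4d in both tables, and Ezh2 and Setd4 in the Dnmt3a table.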
